A study of Mus musculus with 6 samples.

Results

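Interferon-stimulated genes were followed in RNA-seq libraries of mouse thyroid glands, taken from female mice at 12 weeks. The group *Thy-Tet1+/+* had 3 wild-type littermates, and the group labelled *Thy-Tet1-/-* had 3 mice in which *Tet1*, an enzyme that oxidizes methylated cytosine in DNA, was removed from thyroid follicular epithelial cells by Cre recombination of a floxed allele. By that design the immune, vascular and stromal cells of the gland keep their *Tet1*, and the mice received no treatment. The list of interferon-stimulated genes is one of gene names, with no measured value in its rule, but it was chosen with earlier results of these data known. It comprised 37 genes, of which 35 had a row among the 21878 genes counted and all 35 passed the filter on low counts. *Mx1* and *Mx2* were not analysed here.

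Interferons are secreted proteins by which cells warn each other of viral infection. Type I and type III interferons signal through receptor-bound JAK kinases to a complex that holds STAT2 and IRF9 and binds the interferon-stimulated response element (ISRE) of target promoters, whereas type II interferon (interferon gamma) acts mainly at the gamma-activated site (GAS). The target genes encode proteins that block viral replication, sense foreign nucleic acid, carry the signal further or attract lymphocytes. Many of them are transcribed at a low basal level in uninfected tissue, with macrophages and other immune cells among the cells that express them.

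The promoter letters of some members that carry them are shown first, since these are the elements through which interferons are known to act. Members without a match are not shown. Sequences were taken from RefSeq (GRCm38.p6), in windows from 250 bases before to 50 bases after each annotated start, and are written along the strand of the gene. Capitals mark GAAANNGAAA (searched on both strands, so that it also appears as TTTCNNTTTC) for the ISRE and the palindrome TTCNNNGAA for the GAS.
*Irf1*, GAS, chr11:53769914-53769942 (+): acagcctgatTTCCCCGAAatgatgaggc
*Ifit1*, ISRE, chr19:34640775-34640804 (+): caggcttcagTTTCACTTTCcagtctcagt
*Ifit3*, ISRE, chr19:34583363-34583392 (+): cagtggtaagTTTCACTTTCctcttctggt
*Isg15*, ISRE, chr4:156200865-156200894 (-): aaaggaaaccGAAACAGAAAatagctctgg
*Oas1a*, ISRE, chr5:120907520-120907549 (-): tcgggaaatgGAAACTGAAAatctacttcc
*Bst2*, ISRE, chr8:71537577-71537606 (-): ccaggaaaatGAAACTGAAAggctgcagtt
*Stat2*, ISRE, chr10:128270266-128270295 (+): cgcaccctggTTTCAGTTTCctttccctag
*Gbp3*, ISRE, chr3:142559989-142560018 (+): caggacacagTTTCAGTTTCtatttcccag

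The GAS letters of *Irf1* began 90 bases before its start. Of the 35 members, 29 had a window. ISRE letters stood in the windows of 17 of these 29 members (47.2% of 36 windows, against 3.44% of all 32851 windows), and GAS letters in those of 10 members (27.8% of 36 windows, against 8.30%). The window of *Irf1* held GAS and no ISRE letters, as did those of *Ifit2*, *Isg20*, *Ifi35* and *Irf8*. The windows of *Oas1a* and *Bst2*, shown above for the ISRE, also held GAS letters. Those of *Oasl2* and *Irf7* held neither. The letters of both motifs can overlap, as they did in *Ifitm3*.

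The libraries were not alike in cell content or depth. Each library held between 8867683 and 19950898 counts, and 3 counts, taken as the floor of detection, corresponded to 0.150 to 0.338 CPM (counts scaled to library size). That floor was taken from the library totals alone, whereas the levels given below are also TMM-scaled. The follicular cell markers, with thyroglobulin in the lead, summed to between 193301 and 315788 CPM in every library. *Tet1* counts were 48, 71 and 62 in *Thy-Tet1+/+* and 172, 162 and 241 in the other group, a log2 fold change of 1.28 (adjusted p = 0.101, edgeR), so that transcript counts went against the label. These are counts over the whole gene, and reads on single exons were not analysed here, so they do not check a deleted exon. The second group is therefore called the libraries labelled *Thy-Tet1-/-*. Thymocyte markers (recombinase *Rag1*, *Dntt*, *Ptcra* and *Cd1d1*) summed to 69.3, 2.14 and 2.89 CPM in *Thy-Tet1+/+* and to 18.4, 10.8 and 283 CPM in the libraries labelled *Thy-Tet1-/-*, with *Rag1* at 350 and 2506 counts in replicate 1 of the former and replicate 3 of the latter and at most 2 counts elsewhere. In replicates 1 and 2 of the libraries labelled *Thy-Tet1-/-*, 18.2 and 10.8 CPM of these sums were *Cd1d1*, and the other markers had at most 2 counts. Muscle markers summed to 4932, 573 and 2768 CPM in *Thy-Tet1+/+* and to 74.1, 5240 and 13.5 CPM in the libraries labelled *Thy-Tet1-/-*. Adipocyte markers summed to 433, 204 and 144 CPM against 1282, 621 and 318 CPM. Parathyroid markers were at 192 CPM in *Thy-Tet1+/+* replicate 2, against 7949 to 31340 CPM elsewhere. Counts of genes past the limits are also given without the libraries with *Rag1* counts and without *Thy-Tet1+/+* replicate 2.

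Only 1 of the 35 members, *Irf1*, differed between the groups by the limits used here, a level more than 1.5-fold higher or lower with p under 0.05 before adjustment (edgeR, quasi-likelihood). It was higher in the libraries labelled *Thy-Tet1-/-*. The other 34 members met neither direction of the limits. For comparison, 9.2% of the 14143 tested genes met them, 5.54% with a higher level, so 1 of 35 is no excess over the background. No member had an adjusted p under 0.05 in edgeR (0.113% of all genes did, which is 16 genes, against 2676 at an unadjusted p under 0.05). In the Wald test of DESeq2, 1 member (*Irf1*) had such an adjusted p, against 8.56% of all genes. The log2 fold changes ran from -1.14 to 1.26 with a median of -0.16, beside a median of 0.00 over all tested genes, and 10 members had values above 0 and 25 below.

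**Figure D1:**
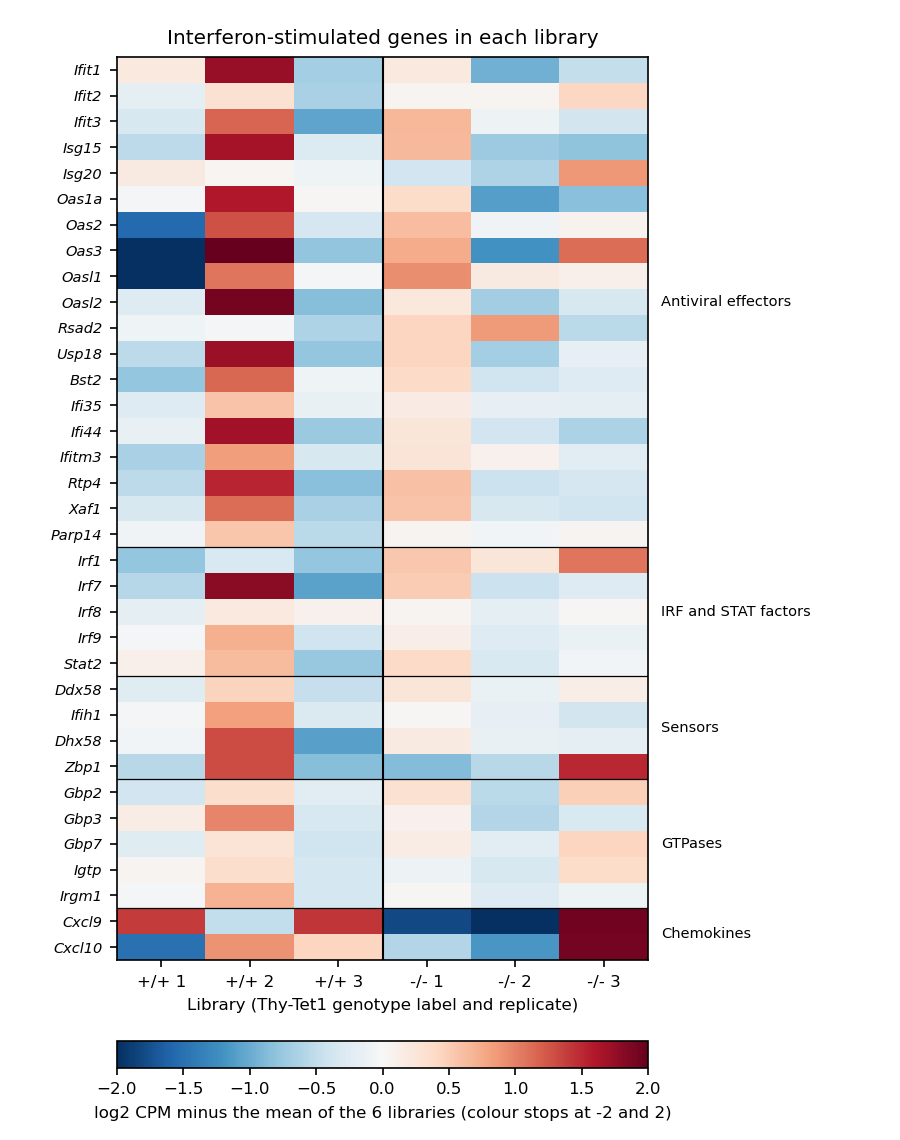
Level of the 35 interferon-stimulated genes (rows, grouped by role) in the 6 libraries (columns), as log2 CPM minus the mean of the 6 libraries, with colour limits of -2 and 2. *Thy-Tet1+/+* replicate 2 is red in most rows and is the highest library for 25 of 35 genes, while *Irf1* is blue in all 3 *Thy-Tet1+/+* libraries and red in the other 3.

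*Irf1* (NCBI gene 16362, GRCm38 chr11:53770014-53778374, plus strand) encodes interferon regulatory factor 1, a transcription factor induced by interferon gamma that activates guanylate-binding protein and antigen presentation genes. Its level was 30.0, 41.7 and 30.2 CPM in *Thy-Tet1+/+* and 75.1, 61.2 and 109 CPM in the libraries labelled *Thy-Tet1-/-*. The groups did not overlap, and the lowest library labelled *Thy-Tet1-/-* lay above the highest *Thy-Tet1+/+* library. Means were 34.0 ± 6.69 CPM (SD, n = 3) and 81.7 ± 24.5 CPM (SD, n = 3). The log2 fold change was 1.26 (standard error 0.25, 95% interval 0.68 to 1.85, adjusted p = 0.0958 by edgeR and the Benjamini-Hochberg method). It was the only member of the 35 without overlap between groups, where 26.8% of all tested genes had none.

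The highest *Irf1* level was in the library with the most thymocyte transcripts, replicate 3 of the libraries labelled *Thy-Tet1-/-*. Without that library the log2 fold change of *Irf1* was 0.99 (adjusted p = 0.215, edgeR). Without both libraries that carried thymocyte transcripts it was 0.92 (adjusted p = 0.173, edgeR), with levels of 41.7 and 30.2 CPM against 75.1 and 61.2 CPM and again no overlap. The share of all genes without overlap was not calculated for 2 against 2 libraries. In that comparison of 2 against 2 libraries, 10.6% of all genes and 4 members met the limits. These were *Irf1* and *Rsad2* with higher levels and *Cxcl9* and *Cxcl10* with lower levels. Over 15 alternatives of scaling, test, filter, block and libraries, *Irf1* kept its direction and met the limits each time, with a log2 fold change of 0.92 to 1.44 and an adjusted p of 1.32e-04 (DESeq2) to 0.324 (edgeR, without replicate 1 of the libraries labelled *Thy-Tet1-/-*). An exon of *Irf1* overlaps 135 bp of *Gm17334* on the opposite strand. Whether the counting used strand is not given in the sources used here, so a part of the *Irf1* counts may belong to that transcript.

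**Figure D2:**
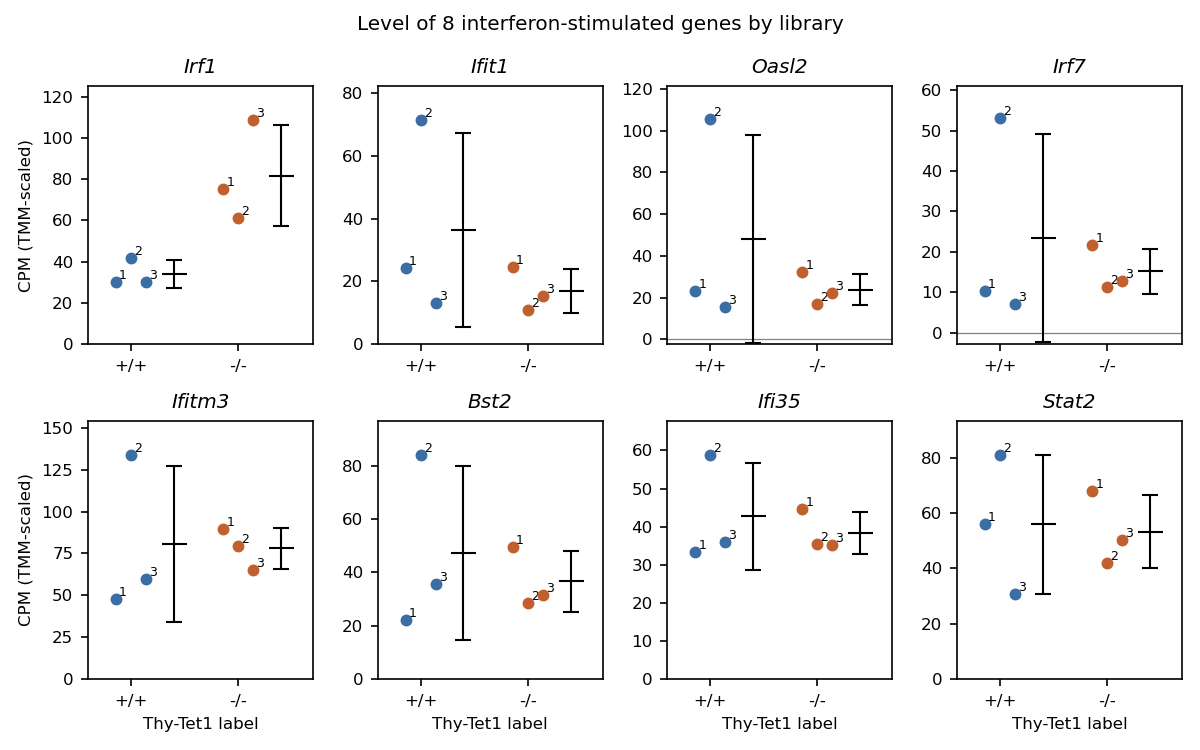
CPM (TMM-scaled, linear axis) of 8 interferon-stimulated genes in each library, numbered by replicate, with the mean and SD of each group (n = 3) drawn to its right; a bar that passes below 0 is an SD larger than the mean. *Irf1* separates the groups, whereas *Ifit1*, *Oasl2*, *Irf7*, *Ifitm3*, *Bst2*, *Ifi35* and *Stat2* have their highest value in *Thy-Tet1+/+* replicate 2 and overlapping groups.

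The members other than *Irf1* varied mainly between single libraries. *Thy-Tet1+/+* replicate 2 was the highest library for 25 of the 35 members (71.4%), against 15.0% of all tested genes, and the lowest for 0. Replicate 3 of the libraries labelled *Thy-Tet1-/-* was the highest for 9 members, namely *Irf1*, *Ifit2*, *Isg20*, *Zbp1*, *Gbp2*, *Gbp7*, *Igtp*, *Cxcl9* and *Cxcl10*, and replicate 2 of that group for 1, *Rsad2*. The median member lay at -0.24, 0.90 and -0.40 in *Thy-Tet1+/+* and at 0.24, -0.32 and -0.13 in the libraries labelled *Thy-Tet1-/-*, in log2 CPM relative to the mean of the 6 libraries. Relative to the median of the other 5 libraries, the level in *Thy-Tet1+/+* replicate 2 had a median ratio of 2.07 over the members and of 0.996 over all genes. It was more than 2 times the next highest library for 9 members, against 0.806% of all genes. In bulk tissue, more cells of a type and more RNA per cell cannot be told apart.

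This library set the spread within its group. The median SD of log2 CPM among *Thy-Tet1+/+* libraries was 0.93 for the members and 0.26 for all genes, and without replicate 2 it was 0.25 and 0.24. Among the libraries labelled *Thy-Tet1-/-* it was 0.45 and 0.18. The members also varied together across libraries, with a mean pairwise Pearson correlation of 0.54 over the 6 libraries (0.35 over 5 libraries without *Thy-Tet1+/+* replicate 2). Over all tested genes it was 0.00. Scaling to library size holds that value near 0, so it does not show what another list of genes would give. These correlations are descriptions over points that share library and depth. *Irf1* had a mean correlation of 0.15 with the other 34 members, whereas *Usp18* had 0.73 and *Irf7* 0.72. Only *Cxcl9* (-0.19), *Rsad2* (-0.01) and *Isg20* (0.09) had lower means than *Irf1*.

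The antiviral effectors had the highest median ratio to the other libraries in *Thy-Tet1+/+* replicate 2. Of 21 listed, 19 were tested, 0 met the limits, 4 had log2 fold changes above 0 and 15 below (median -0.25), and 16 were highest in *Thy-Tet1+/+* replicate 2, with a median ratio of 2.72. *Oasl2*, a member of the 2'-5' oligoadenylate synthetase-like family, was at 23.4, 106 and 15.4 CPM in *Thy-Tet1+/+* and at 32.1, 17.1 and 22.3 CPM in the libraries labelled *Thy-Tet1-/-*. *Ifit1*, which binds viral RNA that lacks cap methylation, was at 24.3, 71.6 and 13.3 CPM against 24.5, 10.8 and 15.2 CPM. *Oas1a*, which makes oligoadenylates from ATP on sensing double-stranded RNA, was at 13.9, 43.8 and 14.5 CPM against 18.5, 6.58 and 7.93 CPM. All 3 genes had a single high library, and the remaining *Thy-Tet1+/+* libraries lay within or near the range of the other group. Their log2 fold changes were -1.02, -1.11 and -1.14, the most negative of the members, with adjusted p values of 0.482, 0.387 and 0.343 (edgeR). Reads of *Oas1a* can be shared with its near-identical neighbour *Oas1g*, and those of *Ifit3* with *Ifit3b*, so these counts are uncertain.

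*Isg15*, the ubiquitin-like modifier, and *Usp18*, the protease that removes it, had like profiles. *Isg15* was at 5.22, 24.2 and 6.21 CPM in *Thy-Tet1+/+* and at 11.8, 4.50 and 4.27 CPM in the libraries labelled *Thy-Tet1-/-*. *Usp18* was at 4.98, 24.1 and 4.16 CPM against 9.81, 4.44 and 6.40 CPM. In both genes the second highest library was replicate 1 of the libraries labelled *Thy-Tet1-/-*, an order that 21 of the 35 members shared, against 1.65% of all tested genes. *Rsad2* (viperin, a radical enzyme that makes a chain-terminating nucleotide) had the second-largest positive difference, 0.58 on the log2 scale, just short of the limit on fold change. Its levels were 20.2, 20.7 and 13.8 CPM in *Thy-Tet1+/+* and 28.8, 38.5 and 14.6 CPM in the libraries labelled *Thy-Tet1-/-*, so the groups overlapped through the last library (adjusted p = 0.425, edgeR).

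The members with the highest level per kb of transcript were effectors at membranes and in the cytoplasm. *Ifitm3*, which hinders the fusion of virus with endosomal membranes, averaged 117 CPM per kb over the 6 libraries, *Bst2* (tetherin, which holds budding virus at the cell surface) 53.0 and *Ifi35* 29.8, with a median of 8.62 and a lowest value of 0.252 (*Oas3*) over the members. *Ifitm3* was at 47.6, 134 and 60.0 CPM in *Thy-Tet1+/+* and at 89.6, 79.4 and 64.9 CPM in the libraries labelled *Thy-Tet1-/-*. *Bst2* was at 22.1, 84.2 and 35.6 CPM against 49.6, 28.7 and 31.6 CPM. *Ifi35* was at 33.3, 58.9 and 36.0 CPM against 44.7, 35.4 and 35.1 CPM. The groups overlapped in all 3 genes, with log2 fold changes of -0.05 (95% interval -0.96 to 0.86), -0.37 (-1.53 to 0.78) and -0.16 (-0.73 to 0.41).

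Among the transcription factors, *Irf1* stood alone. *Irf7*, the factor that amplifies type I interferon production, was at 10.2, 53.0 and 7.16 CPM in *Thy-Tet1+/+* and at 21.6, 11.2 and 12.7 CPM in the libraries labelled *Thy-Tet1-/-*. *Stat2*, the partner of IRF9, was at 56.1, 81.1 and 30.8 CPM against 67.8, 41.9 and 50.1 CPM. *Irf9* was at 58.7, 99.0 and 45.8 CPM against 66.8, 50.5 and 55.2 CPM. These 3 had their highest level in *Thy-Tet1+/+* replicate 2 and overlapping groups, with log2 fold changes of -0.64, -0.07 and -0.24. *Irf8*, a factor of macrophage and dendritic cell development, ran from 24.8 to 32.1 CPM in *Thy-Tet1+/+* and from 24.9 to 29.2 CPM in the libraries labelled *Thy-Tet1-/-* (log2 fold change -0.07, 95% interval -0.41 to 0.27). Exons of *Irf7* overlap 45 bp of *Phrf1* on the opposite strand, and those of *Irf9* overlap 123 bp of *Rnf31* on the same strand.

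None of the 4 cytosolic sensors of foreign nucleic acid met the limits. *Ddx58* (RIG-I) was at 59.1, 95.1 and 50.8 CPM in *Thy-Tet1+/+* and at 82.5, 64.0 and 76.9 CPM in the libraries labelled *Thy-Tet1-/-*, and *Ifih1* (MDA5), which recognizes long double-stranded RNA, at 25.5, 45.9 and 21.3 CPM against 26.4, 23.2 and 20.2 CPM. Their log2 fold changes were 0.12 and -0.41, and that of *Dhx58* (LGP2, which modulates both) was -0.44. *Zbp1*, a sensor of Z-form nucleic acid, was high in 1 library of each group, at 1.19, 4.60 and 0.94 CPM against 0.93, 1.18 and 5.28 CPM. The interferon-inducible GTPases, which attack the vacuoles of intracellular pathogens, lay between -0.62 (*Gbp3*) and 0.23 (*Gbp7*), and 0 of 5 met the limits. *Gbp2* was at 18.1, 30.4 and 20.5 CPM against 29.1, 16.2 and 32.9 CPM, and was highest in replicate 3 of the libraries labelled *Thy-Tet1-/-*. The counts of Gbp genes can share reads with their close copies, and *Igtp* shares 162 bp of exon with *Irgm2* on the same strand.

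The chemokines *Cxcl9* and *Cxcl10*, ligands of CXCR3 that attract activated T cells, were near the floor and had 2 of the 3 largest ratios within a group among the members with no library at 0. *Cxcl9* had 21, 11 and 46 counts in *Thy-Tet1+/+* and 3, 1 and 72 counts in the libraries labelled *Thy-Tet1-/-*, a ratio of 61.8 between the highest and lowest CPM of the latter. *Cxcl10* had 1, 21 and 14 counts against 6, 3 and 47 counts, a ratio of 13.4. Both were highest in the library with the most thymocyte markers, and both had 6 counts or fewer in the other 2 libraries of that group. The third of these ratios was that of *Oasl1*, with 1, 43 and 18 counts in *Thy-Tet1+/+* (ratio 19.4) against 38, 20 and 22 counts. *Oas3* had 0, 80 and 5 counts in *Thy-Tet1+/+* against 19, 3 and 27 counts, and the library at 0 leaves no ratio for the former. *Cxcl10* shares 133 bp of exon with *Art3* on the opposite strand.

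The sign of most differences depended on *Thy-Tet1+/+* replicate 2. When that library was left out, 20 of the 35 members changed sign, 30 lay above 0 and 5 below, and the median log2 fold change of the members moved from -0.16 to 0.43, while that of all genes was 0.01. In this comparison *Ifit2* and *Irf1* met the limits, 2 of 35 members against 9.04% of all genes, and 10 members had groups without overlap against 36% of all genes. The 10 were *Irf1*, *Ifit2*, *Oas2*, *Oasl1*, *Ifitm3*, *Rtp4*, *Parp14*, *Irf7*, *Ddx58* and *Gbp7*. At an unadjusted p under 0.05 there were 4 members and at an adjusted p under 0.05 there were 0 (edgeR). By role, the median without that library was 0.50 for effectors, 0.30 for factors, 0.45 for sensors, 0.15 for GTPases and 0.01 for chemokines.

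**Figure D3:**
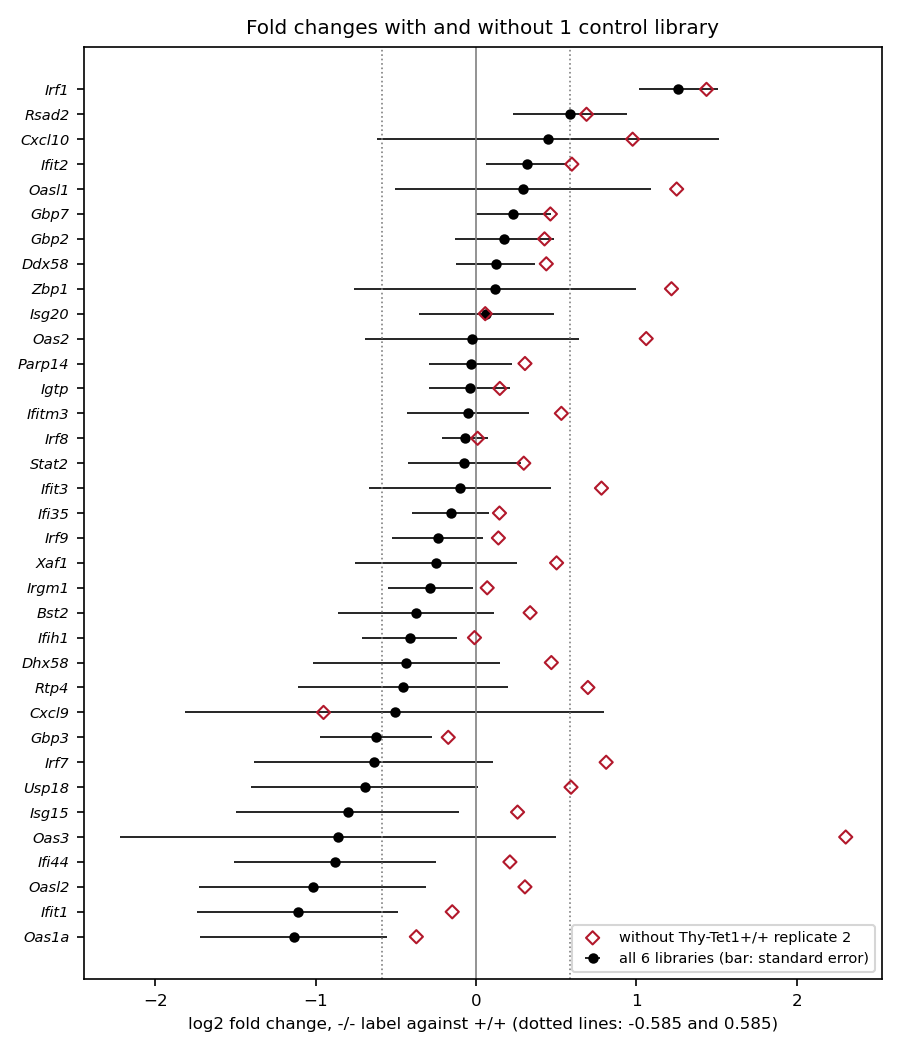
Log2 fold change of each member (libraries labelled *Thy-Tet1-/-* against *Thy-Tet1+/+*) with all 6 libraries (filled circles, bars are standard errors) and without *Thy-Tet1+/+* replicate 2 (open diamonds), with dotted lines at the limit of 1.5-fold in either direction. Leaving out that library turned 20 of 35 values to the other side of 0, and *Irf1* went from 1.26 to 1.44.

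Of the 13 marker lists, those of macrophages, neutrophils and follicular cells were highest in *Thy-Tet1+/+* replicate 2. Those of leukocytes, lymphocytes, thymocytes, plasmacytoid dendritic cells and natural killer cells were highest in replicate 3 of the libraries labelled *Thy-Tet1-/-*. The 6 macrophage markers summed to 92.3, 334 and 175 CPM in *Thy-Tet1+/+* and to 139, 135 and 158 CPM in the libraries labelled *Thy-Tet1-/-*. All 6 of them (*Adgre1*, *Csf1r*, *C1qa*, *C1qb*, *Cd68* and *Mrc1*) were highest in *Thy-Tet1+/+* replicate 2, which also had the lowest parathyroid sum. Their second highest sum was in *Thy-Tet1+/+* replicate 3, where the median member was lowest (-0.40 in log2 CPM relative to the 6-library mean). General leukocyte markers summed to 86.8, 128 and 72.6 CPM against 50.4, 50.8 and 307 CPM, and T and B lymphocyte markers to 63.1, 7.49 and 4.94 CPM against 3.00, 2.55 and 260 CPM. These lymphocyte sums came from T-lineage genes, as the B-cell genes *Cd79a* and *Ms4a1* had at most 7 counts in any library. Markers of natural killer cells reached at most 13.3 CPM, of neutrophils 3.64 CPM and of plasmacytoid dendritic cells 33.3 CPM, the last mostly from *Ccr9*, which thymocytes also express. The part of these cell types in the levels of the interferon-stimulated genes was not tested. For the 13 marker lists, two-sided exact permutation tests of 3 against 3 libraries gave no adjusted p below 0.929, and the smallest p that this design allows, 0.10, was reached by the follicular list. Its sum was lower under the *Thy-Tet1-/-* label and was almost all thyroglobulin. *Tg* was at 252697, 313667 and 285590 CPM in *Thy-Tet1+/+* and at 205155, 236526 and 190892 CPM in the other group. The other genes of that list did not all go the same way, so it does not measure follicular cell content.

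**Figure D4:**
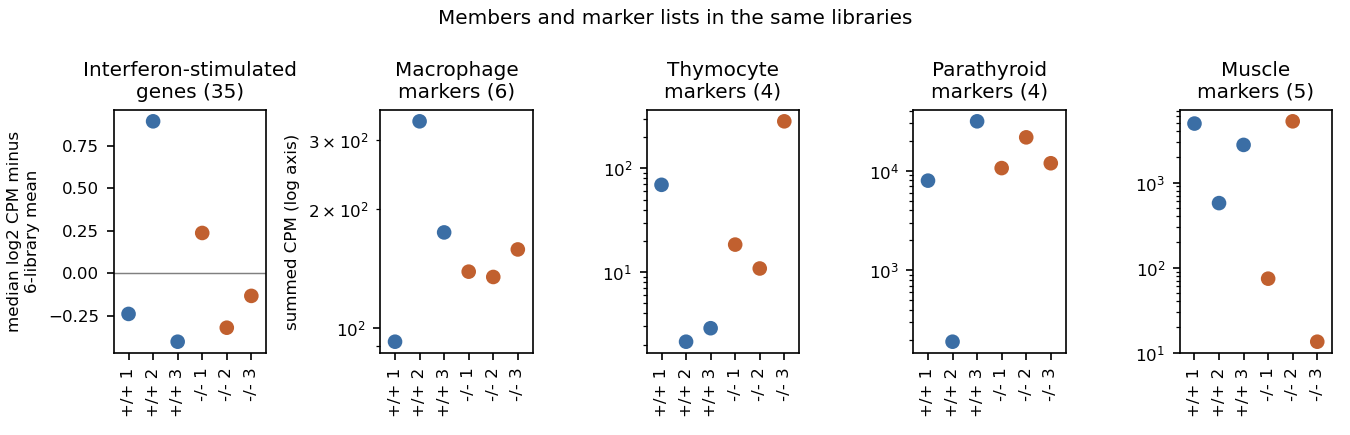
Median level of the 35 members relative to the 6-library mean (left, log2 CPM) and summed CPM of macrophage, thymocyte, parathyroid and muscle markers (log axes) in each library. The members and the macrophage markers are both highest in *Thy-Tet1+/+* replicate 2 (0.90 and 334 CPM), where the parathyroid markers are lowest (192 CPM), and the thymocyte markers are highest in replicate 3 of the libraries labelled *Thy-Tet1-/-* (283 CPM). The second highest macrophage sum (175 CPM) is in *Thy-Tet1+/+* replicate 3, where the median member is lowest (-0.40).

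The promoter letters can be set beside these levels. Of the 17 members with ISRE letters in the window, 12 were highest in *Thy-Tet1+/+* replicate 2 and the median ratio to the other libraries was 2.07, and of the 12 without, 8 were highest there with a median ratio of 1.73. For GAS letters it was 5 of 10 members with them (median ratio 1.39) and 15 of 19 without (2.46). These counts are given without a test.

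Interferon genes themselves were barely counted. Of the 17 type I interferon genes, 2 had any count, *Ifna9* and *Ifnz* with 1 count each in *Thy-Tet1+/+* replicate 3, and both type III genes had none. *Ifng*, the type II interferon of T and natural killer cells, had 0, 2 and 0 counts in *Thy-Tet1+/+* and 6, 1 and 5 counts in the libraries labelled *Thy-Tet1-/-*. None of the 20 ligand genes had enough counts to be tested, and in each library a level below 3 counts was not detectable at this depth.

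None of the genes of the receptors and their JAK kinases met the limits. The 6 receptor genes had log2 fold changes between 0.01 and 0.65 (median 0.17). For *Ifnar1* and *Ifnar2*, which form the type I receptor, *Thy-Tet1+/+* libraries averaged 55.4 ± 1.23 and 64.0 ± 8.25 CPM (SD, n = 3), and those labelled *Thy-Tet1-/-* averaged 58.6 ± 4.44 and 64.5 ± 5.16 CPM (SD, n = 3). *Ifngr1* and *Ifngr2*, the chains of the interferon gamma receptor, had log2 fold changes of 0.27 and 0.39, *Il10rb* 0.06 and *Ifnlr1*, the specific chain of the type III receptor, 0.65 (unadjusted p = 0.0658, adjusted p = 0.294, edgeR), past the limit of fold but not that of p. The 3 kinase genes *Jak1*, *Jak2* and *Tyk2* ran from -0.27 to 0.15 (median -0.14).

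Over all pathway lists, 7 of 80 tested genes (8.75%, near the 9.2% of all genes) met the limits, 5 in the direction of higher levels under the *Thy-Tet1-/-* label and 2 in the other. Upstream of interferon, *Ikbke*, a kinase that phosphorylates IRF3 and IRF7, was at 12.7, 12.5 and 10.8 CPM in *Thy-Tet1+/+* and 23.3, 16.5 and 28.5 CPM in the libraries labelled *Thy-Tet1-/-* (log2 fold change 0.93, adjusted p = 0.114, edgeR). *Ticam1* (TRIF, the adaptor of TLR3) was at 41.3, 26.5 and 26.2 CPM against 18.0, 18.1 and 16.6 CPM (log2 fold change -0.83, adjusted p = 0.116, edgeR). Both had groups without overlap. *Tlr9*, a sensor of bacterial and viral DNA, was lower by the same limits (log2 fold change -1.34), at 1.07, 2.57 and 1.17 CPM against 0.599, 0.592 and 0.711 CPM.

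Of 48 other interferon-stimulated genes tested, 4 were higher and 0 lower by the limits (median log2 fold change 0.09). That is 8.33%, where 9.2% of all tested genes met the limits and 5.54% were higher by them. Of the 48, 25 were highest in *Thy-Tet1+/+* replicate 2, against 15.0% of all tested genes. *Cd274*, which encodes the checkpoint ligand PD-L1, was at 2.97, 4.33 and 3.22 CPM in *Thy-Tet1+/+* and at 10.3, 7.64 and 18.9 CPM in the libraries labelled *Thy-Tet1-/-* (log2 fold change 1.80, adjusted p = 0.101, edgeR). Like *Irf1*, it showed no overlap, and its highest level was in the library with the most thymocyte markers. The GTPase genes *Gbp4* and *Gbp5* had log2 fold changes of 1.13 and 0.99, and the nuclear body gene *Sp100* had 0.67. Without replicate 3 of the libraries labelled *Thy-Tet1-/-*, *Gbp4* (0.50), *Gbp5* (0.93), *Sp100* (0.42) and *Tlr9* (-1.45) did not meet the limits, whereas *Cd274* (1.34), *Ikbke* (0.73) and *Ticam1* (-0.80) did, as did *Irgm2* (0.59) and *Ccl5* (-2.38). Without both libraries that carried thymocyte transcripts, 7 pathway genes met the limits, against 10.6% of all genes. Of the genes past the limits in all 6 libraries, these included *Cd274* (1.25), *Ikbke* (0.77) and *Tlr9* (-1.64), whereas *Ticam1* (-0.55), *Gbp4* (0.46), *Gbp5* (1.00) and *Sp100* (0.33) did not meet the limits. The other 4 were *Tlr7* (-1.73), *AI607873* (-0.88), *Irgm2* (0.62) and the chemokine gene *Ccl5* (-2.12, against 1.06 in all 6 libraries). Without replicate 1 of the libraries labelled *Thy-Tet1-/-*, 4 pathway genes met the limits in place of 7, and 7.48% of all genes in place of 9.2%. None of the 9 negative regulators met the limits. *Socs1*, an inhibitor of JAK kinases named after its values were seen, was at 2.25, 1.93 and 2.33 CPM against 2.78, 2.07 and 9.86 CPM. The high value was in replicate 3 of the libraries labelled *Thy-Tet1-/-*.

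**Figure D5:**
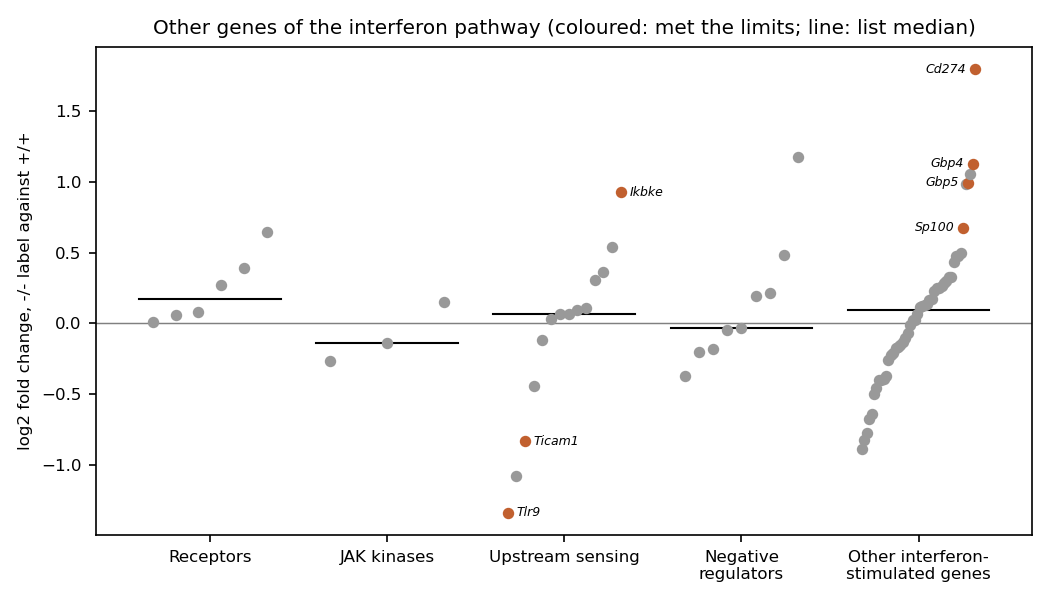
Log2 fold change of the 80 tested genes of the interferon pathway outside the 35 members, by list, with the list median as a line and genes that met the limits in colour. *Cd274* is the highest at 1.80 and *Tlr9* the lowest at -1.34, and the receptor and JAK lists hold no gene that met the limits.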

How the data were processed

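RNA-seq of thyroid glands was analysed in 6 libraries, 3 per group. The labels number the libraries and name no mouse, and each library was taken as a separate mouse. The authors deposited raw counts per gene, without normalization, on build mm10. The aligner, counter and annotation are not given in the sources used here, nor whether counting used strand. The protocol describes poly(A) selection and directional libraries, and speaks of retinas where the stated source is thyroid. There were 0 further value columns, and 27 symbols that had become dates were restored by NCBI identifier. No pair of libraries held identical counts (at least 16310 genes differed).

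The counts were modelled with edgeR 4.0.16 in R 4.3.3 (filterByExpr, TMM, glmQLFit, glmQLFTest), which tested 14143 genes, with Benjamini-Hochberg adjustment over all of them. The limits were a log2 fold change beyond 0.585 in either direction with p under 0.05 before adjustment, as in the legend of the study's heat map. CPM are TMM-scaled, and log2 CPM had a prior count of 2. Positions, lengths and exon overlaps came from GENCODE M21 (GRCm38), and lengths are those of the longest transcript. Alternatives were RLE size factors, library totals, scaling to 10 epithelial genes, DESeq2 1.42.0, limma-voom (limma 3.58.1), no filter, at least 10 counts per library, a block for the replicate number, and the fit without each single library. Leaving out both libraries with thymocyte transcripts was an alternative chosen after seeing the data. The code was tested on simulated counts.

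Members, pathway lists, marker lists and tests were chosen with earlier results of these data known. By rule, values in every library are given for members past the limits or without overlap, the 3 highest per kb and the 3 with the widest spread within a group, and for pathway genes past the limits. Members further shown by library were chosen after their values were seen. Some results, of genes that stood in the pathway and marker lists, are not reported here, and the counts of these lists are without them.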

Additional observations from a re-analysis of the deposited data

How the results depend on the processing

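Depth (8867683 to 19950898 counts) limits *Cxcl9*, *Cxcl10*, *Oas3*, *Oasl1*, *Zbp1* and the ligand genes. The spread between libraries limits the rest, with 3 libraries per group. In it, differences between mice and in cell content cannot be told apart. RLE size factors, no filter and at least 10 counts in every library turned the direction of none of the named genes that they tested and moved none across the limits. The last filter left out 4 members (*Oas3*, *Oasl1*, *Cxcl9* and *Cxcl10*) and *Tlr9*, so that 6 pathway genes met the limits under it. Of all genes 9.57% did. Of the receptors, *Ifnlr1* met the limits under library totals, epithelial scaling, DESeq2 (0.65) and without *Thy-Tet1+/+* replicate 2 (0.99), *Ifngr2* under library totals and epithelial scaling, and *Ifngr1* under epithelial scaling, each scaling as fitted. Library totals and epithelial scaling moved the median log2 fold change of all genes by 0.19 and 0.48, raised the share of higher genes among those past the limits from 60.2% to 86.1% and 98.0%, and turned 8 and 15 members as fitted, so changes of genes under them are given relative to that shift. Under epithelial scaling as fitted, 28.1% of all genes and 6 of the 35 members met the limits, 6 had no overlap, 31 pathway genes met the limits and the median of the members was 0.36. The share of all genes without overlap was not calculated under that scaling. Under library totals 11 pathway genes met the limits, against 7 with TMM, and 12.1% of all genes did, against 9.2% with TMM. DESeq2 gave 2 members past the limits (*Irf1* and *Oas1a*), against 1419 of 14143 genes.

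Leaving out both libraries with thymocyte transcripts gave 4 members past the limits (10.6% of all genes met them) and 6 without overlap. The share of all genes without overlap was calculated only for all 6 libraries (26.8%) and without *Thy-Tet1+/+* replicate 2 (36%). Other counts without overlap therefore have no background beside them and are not read as results about the members. Leaving out 1 library at a time gave 1 to 3 members and 4 to 10 pathway genes past the limits. In these fits 7.48% to 10.4% of all genes met them. The members without overlap numbered 1 to 10, the median of the members was -0.37 to 0.43, and the leukocyte sum differed by -0.88 to 0.42 (log2). The highest median and the 10 came without *Thy-Tet1+/+* replicate 2. The 3 members were *Gbp3*, *Ifit1* and *Irf1* without *Thy-Tet1+/+* replicate 3, and *Cxcl9*, *Irf1* and *Rsad2* without replicate 3 of the libraries labelled *Thy-Tet1-/-*. Without replicate 1 of the latter group they were *Irf1* and *Oas1a*. None of these counts of members exceeded the share of all genes in the same fit.

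Same-numbered libraries did not deviate together over all tested genes (correlations of -0.17, -0.37 and -0.19). Because the libraries also differed in cell content, these correlations cannot decide whether the numbers pair the mice. With the replicate block 1 member and 4 pathway genes (*Cd274*, *Gbp5*, *Ikbke* and *Ticam1*) met the limits, where 8.10% of all genes did. *Irf1* then had a log2 fold change of 1.24 (adjusted p = 0.260, edgeR). Signs turned under the block for *Ifit3* (0.15), *Isg20* (-0.10), *Oas2* (0.37), *Oas3* (0.70), *Ifitm3* (0.087), *Parp14* (0.036) and *Stat2* (0.012).

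Signs turned under limma-voom for *Ifit3* (0.092), *Isg20* (-0.033), *Oas2* (0.16), *Oas3* (0.31), *Ifitm3* (0.065), *Parp14* (0.030), *Stat2* (0.016), *Zbp1* (-0.011) and *Cxcl10* (-0.14), and relative to the shift under epithelial scaling for *Oas2* (0.093) and *Ifitm3* (0.016). Without both libraries with thymocyte transcripts they turned for *Isg20* (-0.48), *Oasl1* (-0.018), *Zbp1* (-1.39), *Gbp2* (-0.17), *Cxcl10* (-1.88), *Ifnar1* (-0.0014), *Ifnar2* (-0.019) and *Ifngr1* (-0.11). None of these members met the limits in all 6 libraries, and the cause was not tested.

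Leaving out 1 library at a time, the log2 fold change crossed 0 for 27 of the 35 members. The ranges were -0.50 to 0.78 for *Ifit3*, -1.48 to 0.26 for *Isg15*, -0.55 to 0.31 for *Isg20*, -0.45 to 1.06 for *Oas2*, -1.39 to 2.31 for *Oas3*, -0.18 to 1.25 for *Oasl1*, -1.44 to 0.31 for *Oasl2*, -1.09 to 0.59 for *Usp18*, -0.71 to 0.34 for *Bst2*, -0.31 to 0.15 for *Ifi35*, -1.27 to 0.21 for *Ifi44*, -0.32 to 0.53 for *Ifitm3*, -0.89 to 0.70 for *Rtp4*, -0.66 to 0.50 for *Xaf1* and -0.26 to 0.31 for *Parp14*. Among factors, sensors, GTPases and chemokines they were -1.07 to 0.81 for *Irf7*, -0.17 to 0.010 for *Irf8*, -0.46 to 0.14 for *Irf9*, -0.37 to 0.30 for *Stat2*, -0.053 to 0.44 for *Ddx58*, -0.85 to 0.47 for *Dhx58*, -1.13 to 1.22 for *Zbp1*, -0.032 to 0.43 for *Gbp2*, -0.26 to 0.15 for *Igtp*, -0.49 to 0.070 for *Irgm1*, -3.94 to 0.032 for *Cxcl9* and -1.48 to 0.98 for *Cxcl10*. Outside the members they were -0.077 to 0.11 for *Ifnar2* and -0.015 to 0.086 for *Il10rb*.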
